A study of Mus musculus with 6 samples.

Results

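The proteasome is the protease complex that breaks down ubiquitin-tagged proteins in the cytosol and nucleus of every cell. Its barrel-shaped core is built from alpha rings (Psma genes) and beta rings (Psmb genes), and its regulatory cap (Psmc and Psmd genes) binds, unfolds and feeds substrates. The genes described here are the 50 protein-coding genes, of 54532 genes in the table, whose symbol begins with Psma, Psmb, Psmc, Psmd, Psme, Psmf or Psmg followed by a number. They comprise 19 core genes, 17 cap genes, 6 activator genes with the regulator Psmf1 among them, 7 assembly factors, and Psmc3ip, a meiotic recombination factor that the symbol alone brings in. Whole livers of 3 hepatocyte Notch1 knockout mice were set against whole livers of 3 mice carrying floxed Notch1 alleles, in a study of what Notch1 does in hepatic thrombopoietin production. All 6 mice were untreated. The sources used here do not name the driver of the deletion or the strain, sex and age of the mice.

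Levels are in FPKM, fragment counts divided by gene length and by a scale for each library, so genes of different length may be set side by side. The libraries held 15612924 to 17511961 reads in genes. The control columns carry the name NC and were taken as controls by elimination. Notch1 measured 0.301, 0.540 and 0.292 FPKM in the knockouts and 0.618, 0.965 and 0.854 in the controls, with no overlap (limma adjusted p = 0.257), where the value covers the whole gene and every cell type of the liver. Hepatocyte markers were present in all 6 livers, with Alb, Apoa1, Ttr, Serpina1a and Apob summing to 31966 to 42663 FPKM in knockouts and 44911 to 52643 in controls. These sums did not overlap, and Alb made up most of each. All 5 markers were lower in knockouts by mean, 0 of them at an unadjusted limma p under 0.05. In whole liver, fewer cells of a type and less RNA per cell cannot be told apart. The median log2 change of all 12022 genes tested was -0.0081; scaling to total reads instead moved it by 0.10, and directions below are given relative to the deposited scaling.

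In adult tissue the core exists in alternative forms. Psmb5, Psmb6 and Psmb7 encode the constitutive catalytic subunits, and Psmb8, Psmb9 and Psmb10 encode inducible ones that replace them in the immunoproteasome, which interferon gamma induces and which shapes peptides for MHC class I. NFE2L1 is the transcription factor known to raise proteasome genes together when proteasome capacity is short. In the liver, hepatocytes carry mainly the constitutive form, and leukocytes are rich in the inducible one.

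Proteasome genes as a whole measured much alike in knockout and control livers. Of the 50 genes, 48 had a mean of at least 0.5 FPKM and were tested on log2(FPKM + 1) with limma over all genes. None passed a Benjamini-Hochberg adjusted p of 0.05, by limma or by limma voom on reads. The lowest was Psmb8 at 0.280 by limma and Psmb10 at 0.258 by voom. Of all genes tested 0.025% passed, 0.00832% higher and 0.0166% lower. At an unadjusted p under 0.05, 3 were higher (Psmb8, Psmb10 and Psmg4; background 6.83%) and 1 was lower (Psmf1; background 7.06%), and voom gave the same 4 genes. With the replicate number as a block, Psme2b took the place of Psmb10 among the 3 higher in limma. The higher count was 0 without knockout 2, without knockout 3 or without control 3, and the lower count was 0 without knockout 1, knockout 3, control 1 or control 2 and 2 without control 3. Knockouts lay above every control for 3 genes (Psmb6, Psmb8 and Psmb10; background 9.2%) and below every control for 3 (Psmd1, Psmd9 and Psmf1; background 10.6%). Together these were 12.5% of the module, beside 19.8% of all genes, and the unadjusted calls were 8.33%, beside 13.9%. Among genes averaging at least 10 FPKM, 7.5% of 40 proteasome genes had no overlap, beside 23.7% of 3179 genes in all (237 above and 515 below). The unadjusted calls at that level were 5%, beside 17.1%.

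The median log2 change of the 48 genes was -0.0099, beside -0.0081 for all genes tested, and the median absolute change was 0.056, beside 0.13. Restricted to a mean of at least 10 FPKM, the median absolute change was 0.055 for 40 proteasome genes and 0.15 for 3179 genes in all. The spread between livers of a group was also small: the median within-group SD on the log2 scale was 0.11 for the module and 0.16 for all genes tested. By means, 22 genes were higher and 26 lower. Quantile normalization gave 33 and 15, and scaling to total reads gave 44 and 4 with a median of 0.12, beside 0.097 for all genes. Of all genes tested, 46.8% were higher with quantile normalization and 70.0% with scaling to total reads. The ratio of knockout to control mean FPKM ran from 0.821 for Psmf1 to 1.36 for Psmg4.

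**Figure D1:**
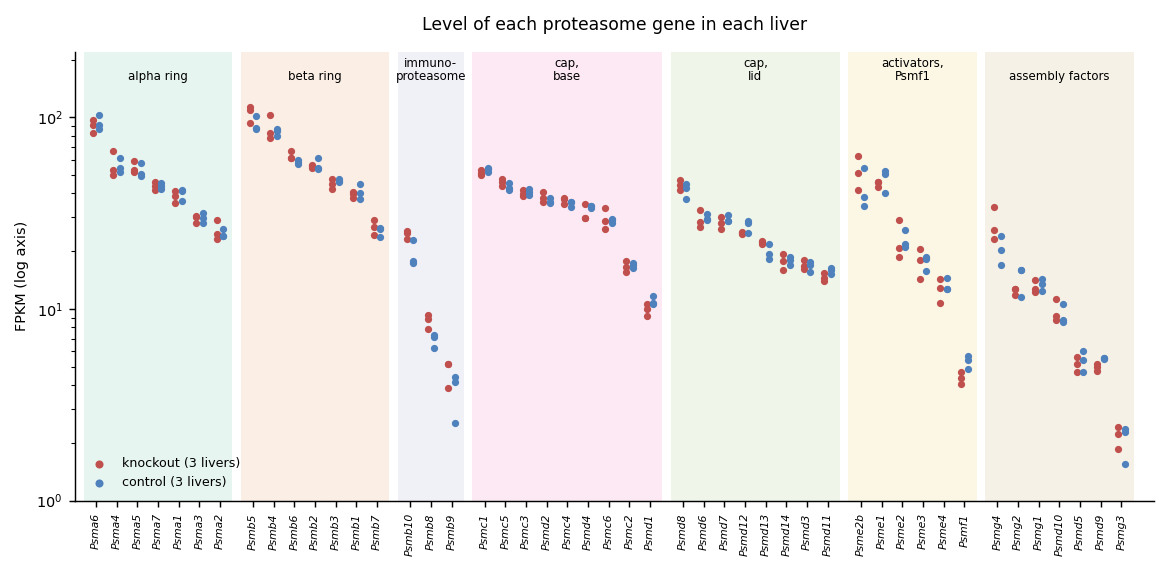
FPKM on a log axis for 47 proteasome genes in each liver, knockouts left and controls right of each position, grouped by place in the complex and ordered by mean. Constitutive core genes average between 25.1 (Psma2) and 98.4 FPKM (Psmb5), and the inducible Psmb8 and Psmb9 lie well below them.

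The core had a higher summed level than the cap. Summed over the 14 constitutive core genes, the level was 779, 782 and 719 FPKM in knockouts 1 to 3 and 748, 776 and 706 FPKM in controls 1 to 3. The groups overlapped, and the mean log2 difference was 0.032 (two-sided exact permutation p = 0.5, n = 3 each, where 0.1 is the smallest p that 3 against 3 allows); without control 3 it was -0.0044. Knockout 3 and control 3 were the low livers of their groups.

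The alpha ring, which forms the gate of the barrel, had the smallest median absolute log2 change of the groups, 0.042. Its 7 genes had mean levels over the 6 livers from 25.1 FPKM for Psma2 to 91.7 for Psma6, with a median of 43.8. Their log2 changes ran from -0.055 for Psma6 to 0.057 for Psma5, with 3 higher and 4 lower. Of these genes 0 had an unadjusted p under 0.05, beside 13.9% of all genes (lowest limma adjusted p = 0.859). Quantile normalization and scaling to total reads each gave 7 of 7 higher, where 46.8% and 70.0% of all genes tested were higher. In every alpha ring gene the livers of the groups overlapped. Psma8, the germ-cell form of an alpha subunit, averaged 0.495 FPKM, just under the level for testing, with 14, 9 and 25 reads in knockouts and 7, 15 and 13 in controls.

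The beta ring carries the proteolytic sites. Its 7 constitutive genes had a median log2 change of 0.053, with 4 higher and 3 lower, and without knockout 2 the median was -0.0061. For these genes too, quantile normalization and scaling to total reads each gave 7 of 7 higher, beside 46.8% and 70.0% of all genes. The structural genes Psmb1 to Psmb4 averaged 40.1 to 85.6 FPKM over the 6 livers. Psmb5, the chymotrypsin-like subunit and the highest of all proteasome genes, measured 109, 113 and 93.1 FPKM in knockouts and 87.0, 101 and 87.5 in controls (log2 fold change 0.19, SE 0.12, adjusted p = 0.546 by limma). Knockouts 1 and 2 lay above all controls and knockout 3 did not. Psmb6, the caspase-like subunit, measured 61.1, 66.2 and 61.1 FPKM in knockouts and 58.5, 59.6 and 56.7 in controls. The groups did not overlap, but the means were only 1.08-fold apart (adjusted p = 0.652). Psmb7, the trypsin-like subunit, measured 29.0, 26.8 and 24.2 FPKM in knockouts and 23.7, 26.1 and 26.5 in controls, with overlap (adjusted p = 0.836); 11.8% of its exon bases are shared with Nek6 on the other strand, and whether counting used strand is not given. Psmb11, the thymic subunit, had 2 reads in knockout 2 and 0 elsewhere, where 3 reads are taken as the floor.

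The inducible subunits were the group with the largest median change, 0.31 on the log2 scale over 3 genes, and 0.30 and 0.42 with quantile normalization and scaling to total reads. Psmb8 (ENSMUSG00000024338, chromosome 17, 34197721 to 34201454, GRCm38), which takes the place of Psmb5, measured 7.87, 8.82 and 9.28 FPKM in knockouts and 7.28, 7.12 and 6.27 in controls. All 3 knockouts lay above all 3 controls, on 322 to 484 reads in knockouts and 285 to 312 in controls. The log2 fold change was 0.29, with a 95% interval of 0.053 to 0.53. Its limma adjusted p of 0.280 ranged between 0.217 and 0.510 across alternatives. In the annotation 14.7% of its exon bases are shared with an antisense gene of 0.0125 FPKM.

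Psmb10 (ENSMUSG00000031897, chromosome 8, 105935735 to 105938444), which takes the place of Psmb7, measured 23.1, 24.9 and 25.6 FPKM in knockouts and 22.9, 17.8 and 17.3 in controls. The groups did not overlap, with control 1 at 22.9 close to knockout 1 at 23.1. The log2 fold change was 0.34, with a 95% interval of 0.041 to 0.64. Its limma adjusted p of 0.313 ranged between 0.236 and 0.531 across alternatives. It was the most abundant inducible subunit, at a mean of 21.9 FPKM over the 6 livers against 7.77 for Psmb8 and 4.21 for Psmb9.

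Psmb9 (ENSMUSG00000096727, chromosome 17, 34181988 to 34187764), which takes the place of Psmb6, measured 5.15, 3.88 and 5.18 FPKM in knockouts and 4.15, 4.39 and 2.53 in controls. Knockout 2 lay below 2 controls, so the groups overlapped (log2 fold change 0.31, SE 0.19, limma adjusted p = 0.513). Without control 3, the lowest liver, the log2 change was 0.12. The gene lies head to head with the peptide transporter gene Tap1, the starts 211 bases apart, and 5.79% of its exon bases are shared with Tap1. Tap1 itself measured 2.17, 2.17 and 2.50 FPKM in knockouts and 2.64, 2.51 and 2.37 in controls, with overlap.

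**Figure D2:**
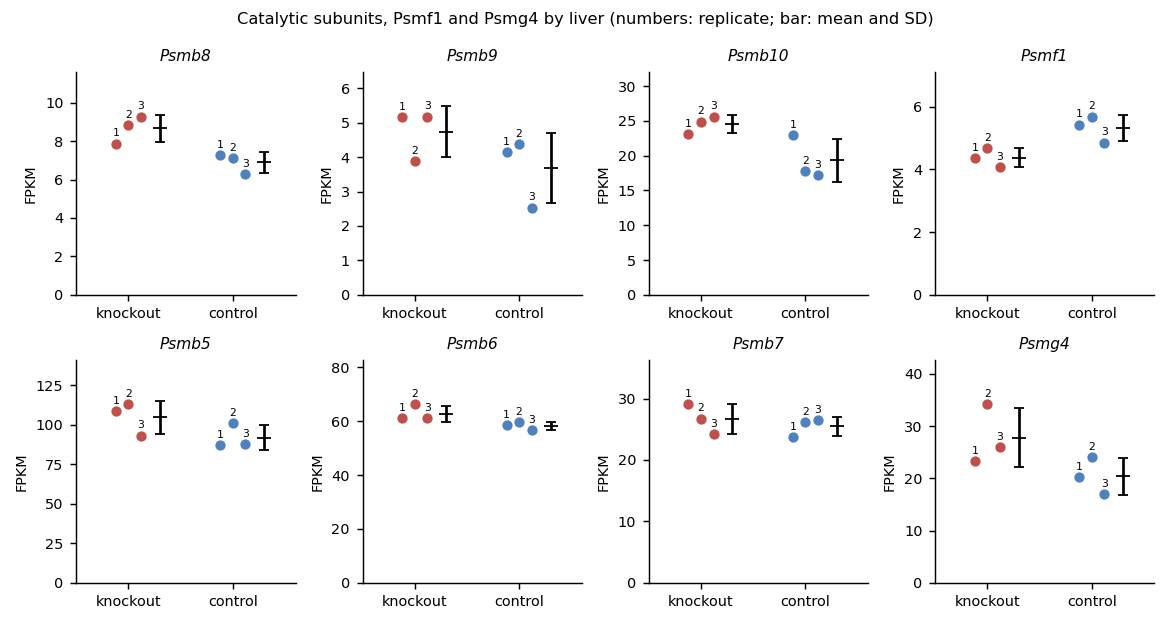
FPKM of the inducible subunits Psmb8, Psmb9 and Psmb10, the constitutive subunits Psmb5, Psmb6 and Psmb7, Psmf1 and Psmg4 in each liver (points, with replicate number), with mean and SD over 3 livers. For Psmb8, Psmb10 and Psmb6 the knockouts lie above every control, for Psmf1 below, and for Psmb5, Psmb7, Psmb9 and Psmg4 the groups overlap.

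The promoters of these catalytic subunits are shown because the constitutive and the inducible set are known to answer to different factors. The sequences are RefSeq's, build GRCm38.p6, 250 bases up to the annotated start, 5′ to 3′, and Psmb7 had no entry. Capitals mark TGACNNNGC, the core of the antioxidant response element that NFE2L1 and NFE2L2 bind, and TTCNNNGAA, the gamma-activated site of interferon gamma signalling, each searched on both strands, and no matches overlap here. RefSeq's starts differ from those of the expression table: the windows of Psmb8 and Psmb9, with the marked run of Psmb8, lie wholly within the gene as the table gives it, and those of Psmb5 and Psmb10 reach into it.
Psmb5 (chr14:54617996-54618245, minus strand): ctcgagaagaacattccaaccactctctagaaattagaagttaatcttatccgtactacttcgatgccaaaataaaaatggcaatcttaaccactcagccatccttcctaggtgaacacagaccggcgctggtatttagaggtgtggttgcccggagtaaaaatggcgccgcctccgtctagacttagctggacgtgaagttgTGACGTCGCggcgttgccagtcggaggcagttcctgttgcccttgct
Psmb6 (chr11:70525107-70525356, plus strand): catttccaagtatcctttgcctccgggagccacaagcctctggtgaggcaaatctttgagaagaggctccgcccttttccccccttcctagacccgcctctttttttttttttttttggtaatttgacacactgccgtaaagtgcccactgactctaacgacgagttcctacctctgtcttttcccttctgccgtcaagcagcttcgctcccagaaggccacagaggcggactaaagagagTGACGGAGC
Psmb8 (chr17:34197945-34198194, plus strand): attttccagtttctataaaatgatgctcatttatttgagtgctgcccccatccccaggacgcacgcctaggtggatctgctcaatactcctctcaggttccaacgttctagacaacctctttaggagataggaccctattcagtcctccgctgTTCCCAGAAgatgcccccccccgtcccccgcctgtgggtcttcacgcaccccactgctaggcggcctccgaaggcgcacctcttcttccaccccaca
Psmb9 (chr17:34187331-34187580, minus strand): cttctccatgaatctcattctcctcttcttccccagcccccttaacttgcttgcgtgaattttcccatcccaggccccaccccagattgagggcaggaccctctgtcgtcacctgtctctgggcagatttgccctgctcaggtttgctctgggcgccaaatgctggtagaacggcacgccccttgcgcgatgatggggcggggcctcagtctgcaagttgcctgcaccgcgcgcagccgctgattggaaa
Psmb10 (chr8:105938393-105938642, minus strand): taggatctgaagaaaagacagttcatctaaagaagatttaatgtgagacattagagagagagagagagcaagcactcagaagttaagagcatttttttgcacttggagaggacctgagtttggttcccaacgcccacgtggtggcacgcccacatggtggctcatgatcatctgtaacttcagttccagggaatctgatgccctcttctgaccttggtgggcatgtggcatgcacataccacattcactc
TGACNNNGC stood in the window of Psmb5 and Psmb6 and not in those of Psmb8, Psmb9 and Psmb10. Of 42 genes of the module with a promoter entry, 5 held it (Psmb5, Psmb6, Psmc6, Psmd12 and Psmd9), beside 11.5% of the 27025 mouse genes with an entry. Psmc3ip is counted among the 42 and did not hold it. TTCNNNGAA was found in 2 (Psmb8 and Psmg1), beside 8.13% of all genes, and GAAA, any 2 bases and GAAA again, the interferon-stimulated response element core, in 3 (Psmb3, Psmd4 and Psmd9), beside 3.46%. CCAAT, the box bound by NF-Y and not capitalised here, was found in 15, Psmc3ip among them, beside 37.5%. A match is only a run of letters.

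Summed over Psmb8, Psmb9 and Psmb10, the inducible subunits measured 36.1, 37.6 and 40.1 FPKM in knockouts and 34.3, 29.3 and 26.1 FPKM in controls. Every knockout lay above every control, and the mean log2 difference was 0.35 (two-sided exact permutation p = 0.1, the smallest possible with n = 3 each, and 0.583 after adjustment over the 7 sums and ratios tested). The difference was 0.26 without control 3 and 0.46 without control 1. Set against the constitutive sum of Psmb5, Psmb6 and Psmb7 in the same liver, a ratio that 1 scale factor per library cannot move, the inducible sum stood at 18.2%, 18.3% and 22.5% in knockouts and 20.3%, 15.7% and 15.3% in controls. The groups overlapped, because control 1 lay above 2 knockouts (log2 difference 0.21, exact permutation p = 0.3, n = 3 each). It was 0.11 with quantile normalization, 0.34 without control 1, 0.11 without knockout 3 and 0.13 without control 3. For the single pairs, Psmb8 to Psmb5 stood at 7.25%, 7.82% and 9.97% in knockouts against 8.38%, 7.04% and 7.16% in controls. Psmb9 to Psmb6 stood at 8.44%, 5.87% and 8.48% in knockouts against 7.10%, 7.36% and 4.47% in controls. Psmb10 to Psmb7 stood at 79.5%, 93.1% and 106% in knockouts against 96.5%, 68.1% and 65.1% in controls. All 3 pairs overlapped between knockouts and controls.

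Markers of other cells in these livers are given beside this group because such cells carry inducible subunits. The 4 leukocyte markers Ptprc, Cd52, Coro1a and Laptm5 summed to 19.7 to 24.5 FPKM in knockouts and 17.7 to 21.8 in controls. By mean, 3 of these were higher in knockouts and 1, Ptprc, was lower. The 7 T and NK cell markers summed to 1.82 to 2.46 against 1.72 to 3.04, the 6 B and plasma cell markers to 2.63 to 3.52 against 4.42 to 5.61, and the 5 dendritic cell markers to 0.554 to 1.14 against 0.675 to 0.920. The 6 Kupffer cell and macrophage markers summed to 92.7 to 135 against 108 to 143, and the 5 neutrophil markers to 10.96 to 36.5 against 6.21 to 16.7. The defining neutrophil marker Ly6g was at 0 in all livers but control 3, where it had 1 read. S100a8 and S100a9 made up most of each neutrophil sum. By mean, 3 of the 4 neutrophil markers tested were higher in knockouts and 1, Csf3r, was lower. The 5 sinusoidal endothelial markers summed to 39.6 to 51.1 FPKM in knockouts against 37.2 to 47.4 in controls, and the 5 stellate cell markers to 57.9 to 80.9 against 58.7 to 74.0. The 5 mesothelial markers, among them Msln and Upk3b, summed to 79.1 to 136 against 4.18 to 47.0, and all 5 were higher at an unadjusted p under 0.05. So was 1 of 4 neutrophil markers tested. Of 4 B and plasma cell markers tested, 2 were lower at that level, and the remaining lists had none. Over all genes tested, 6.83% were higher and 7.06% lower at that level. No dendritic cell marker reached the level for testing. The part of these cells in the inducible subunits was not tested.

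**Figure D3:**
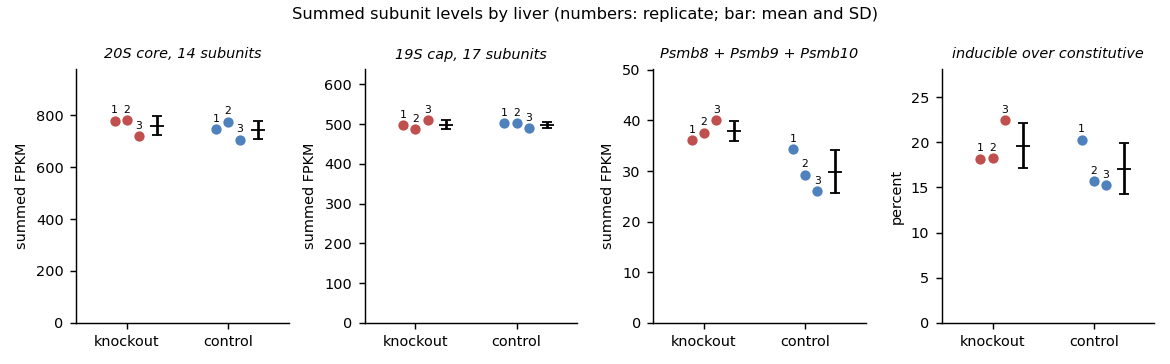
Summed FPKM of 14 constitutive core genes, 17 cap genes and the 3 inducible catalytic genes, and the inducible sum as a percentage of Psmb5, Psmb6 and Psmb7, in each liver (points, with replicate number; bars are mean and SD). Core and cap sums overlap between knockouts and controls, the inducible sums do not, and the percentages overlap through control 1.

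The regulatory cap, counted by Psmc and Psmd symbols, measured much alike in both groups. Its 17 genes summed to 497, 487 and 510 FPKM in knockouts and 503.6, 502.8 and 489.9 FPKM in controls, a mean log2 difference of -0.0016 (exact permutation p = 1, n = 3 each). This difference turned positive with quantile normalization (0.042), with scaling to total reads (0.14), and without knockout 2 (0.014), control 1 (0.0053) or control 2 (0.0043). By gene, 7 were higher and 10 lower, against 9 and 8 with quantile normalization and 16 and 1 with scaling to total reads. Under these 2 scalings 46.8% and 70.0% of all genes tested were higher. In the cap 0 genes had an unadjusted p under 0.05, beside 13.9% of all genes (lowest limma adjusted p = 0.515, for Psmd13).

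Within the cap, the 6 ATPases Psmc1 to Psmc6, the motor that unfolds substrates, averaged 16.7 to 52.4 FPKM. Psmc1, the highest, measured 53.1, 51.3 and 50.2 FPKM in knockouts and 52.0, 53.7 and 54.2 in controls, with overlap (adjusted p = 0.851). Among the scaffold and ubiquitin-receptor genes of the base, Psmd1 was the lowest cap gene and measured 9.97, 9.17 and 10.5 FPKM in knockouts and 10.6, 10.8 and 11.6 in controls. Its groups did not overlap, though the highest knockout and the lowest control nearly met (log2 fold change -0.14, SE 0.091, adjusted p = 0.552). The lid holds Psmd14, the deubiquitinase that removes ubiquitin chains, which measured 17.9, 15.9 and 19.4 FPKM in knockouts and 18.7, 16.96 and 18.03 in controls. The other lid genes averaged 15.2 FPKM for Psmd11 to 43.1 for Psmd8 over the 6 livers. Psmd13 shares 10.1% of its exon bases with Sirt3 on the other strand.

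For all 31 constitutive core and cap genes, the 95% interval of the log2 fold change lay within 1.5-fold in either direction. It did so for 31 with the replicate number as a block, for 30 with quantile normalization (not Psmb5) and for 29 with scaling to total reads (not Psmb4 and Psmb5). Among the other tested genes of the module, the interval reached past 1.5-fold for Psmb9, Psmb10, Psme2b and Psmg4. The share of all genes with such an interval is not given here, so these counts have no matching background. The log2 fold change itself lay within 1.5-fold for 94.2% of all genes tested and for all 48 genes of the module.

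**Figure D4:**
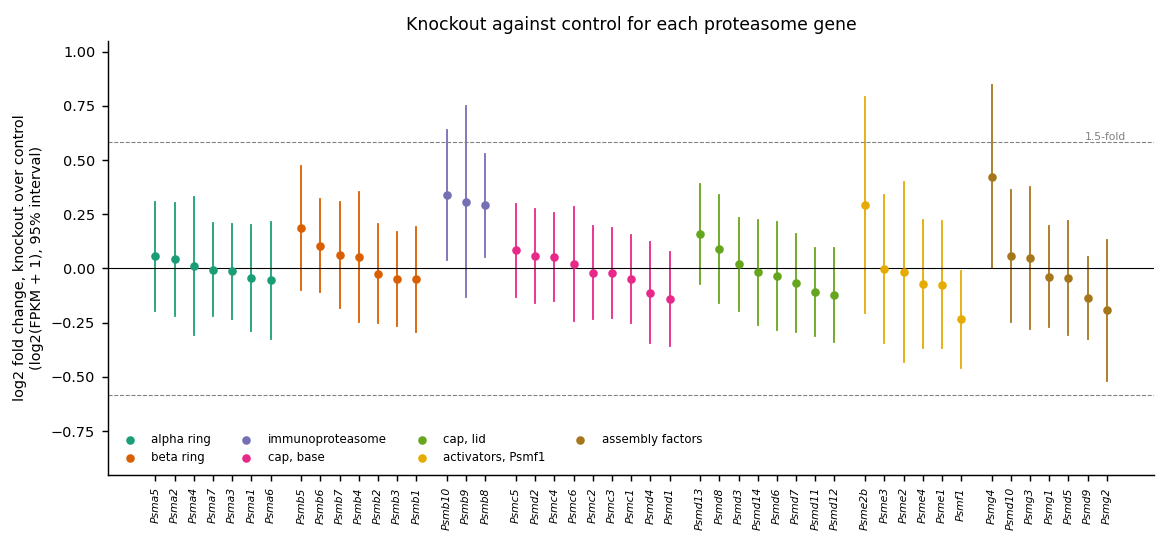
Log2 fold change of knockout over control with its 95% interval for 47 proteasome genes, on log2(FPKM + 1), grouped by place in the complex; dashed lines mark 1.5-fold. The intervals of the constitutive core and cap genes lie between the dashed lines, and those of Psmb9, Psmb10, Psme2b and Psmg4 cross the upper one.

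The alternative activators open the core without ATP. Psme1 and Psme2 encode the interferon-inducible pair, Psme3 the nuclear form and Psme4 the large activator known from DNA repair and spermatogenesis. Psme1 measured 45.6, 45.8 and 43.5 FPKM in knockouts and 50.8, 52.3 and 40.1 in controls (log2 fold change -0.075, limma adjusted p = 0.838). Psme2 measured 29.1, 20.8 and 18.6 FPKM in knockouts and 25.8, 21.8 and 20.9 in controls. Both overlapped, with knockout 1 the highest liver for Psme2.

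Psme2b, a retrogene copy of Psme2, measured 41.5, 63.1 and 50.9 FPKM in knockouts and 34.4, 54.0 and 38.5 in controls (log2 fold change 0.29, limma adjusted p = 0.587). Its transcript is 99.4% identical to an annotated Psme2 transcript over 794 aligned bases, with 5 mismatches, so how reads are split between the copies is uncertain. Psme2 held 59.7%, 41.0% and 43.5% of the reads of both copies in knockouts and 61.2%, 45.9% and 53.4% in controls. FPKM divides by a length of 1764 bases for Psme2 and 837 for Psme2b, so a sum of both still depends on that split. With the FPKM of the copies added, the level was 70.6, 83.9 and 69.5 in knockouts and 60.2, 75.8 and 59.4 in controls. The groups overlapped, and the log2 change was 0.20 (limma adjusted p = 0.570), where Psme2 alone gave -0.017. Within each of the 3 same-numbered pairs of livers, Psme2b and the summed copies were higher in the knockout. With the replicate number as a block, Psme2b had an unadjusted p of 0.0255 and an adjusted p of 0.240 in limma.

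Psme3 measured 20.6, 14.3 and 18.1 FPKM in knockouts and 18.8, 15.7 and 18.2 in controls, and Psme4 measured 14.3, 10.7 and 12.9 FPKM in knockouts and 14.5, 12.6 and 12.6 in controls. Both overlapped (adjusted p = 0.997 for Psme3 and 0.848 for Psme4), and knockout 2 was the lowest liver for each. Psmf1 (ENSMUSG00000032869, chromosome 2, 151715812 to 151744186), which encodes a proteasome-binding protein that inhibits the core in vitro, measured 4.36, 4.68 and 4.08 FPKM in knockouts and 5.43, 5.69 and 4.86 in controls. All 3 knockouts lay below all 3 controls, and the control mean was 1.22 times the knockout mean. The log2 fold change was -0.23, with a 95% interval of -0.46 to -0.0097. Its limma adjusted p of 0.343 ranged between 0.279 and 0.662 across alternatives. With scaling to total reads its log2 change was -0.12.

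Assembly factors are chaperones that leave the finished particle or are consumed in it. Psmg1 and Psmg2 form a pair that starts the alpha ring, as do Psmg3 and Psmg4. Psmg4 (ENSMUSG00000071451, chromosome 13, 34162964 to 34178173) had the largest log2 change of the module and measured 23.3, 34.1 and 25.9 FPKM in knockouts and 20.2, 24.1 and 16.9 in controls, on 156 to 380 reads. Control 2 lay above knockout 1, so the groups overlapped. The log2 fold change was 0.42, with a 95% interval of 0.00039 to 0.85, and 0.27 without knockout 2. Its limma adjusted p of 0.359 ranged between 0.194 and 0.587 across alternatives. Its partner Psmg3 measured 1.85, 2.22 and 2.43 FPKM in knockouts and 2.28, 2.37 and 1.56 in controls, on 75 to 129 reads.

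Psmg1 measured 12.7, 14.1 and 12.2 FPKM in knockouts and 14.3, 13.5 and 12.4 in controls, and Psmg2 measured 11.9, 12.7 and 12.8 FPKM in knockouts and 15.99, 16.04 and 11.5 in controls. For Psmg2, controls 1 and 2 lay above all knockouts and control 3 below them (adjusted p = 0.582). Among the chaperones of the cap base, Psmd9 measured 4.73, 5.16 and 4.95 FPKM in knockouts and 5.49, 5.56 and 5.57 in controls, with no overlap (log2 fold change -0.14, adjusted p = 0.497). In the annotation, 25.5% of the exon bases of Psmd9 are shared with an antisense transcript that is listed at 0. Psmd5 measured 5.62, 4.71 and 5.17 FPKM in knockouts against 4.68, 6.001 and 5.43 in controls, and Psmd10, known as gankyrin, 8.74, 9.17 and 11.3 FPKM in knockouts against 10.6, 8.76 and 8.56 in controls, both overlapping. Psmc3ip measured 0.110, 0.905 and 0.547 FPKM in knockouts and 0.806, 0.446 and 0.199 in controls, on 3 to 33 reads.

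Proteasome subunits and regulators with other symbols were mostly lower by mean. Among them is Sem1, annotated as a proteasome complex subunit, which its symbol keeps out of the cap counts above. Of 16 tested, 15 were lower and 1 (Sem1) higher by mean, and the median log2 change was -0.14 beside -0.0081 for all genes. None passed over all genes (limma; 0 by voom), and 1, Zfand2a, had a lower level at an unadjusted p under 0.05 (background 7.06%; 0 without control 2 or control 3, and 0 by voom). With scaling to total reads, 7 were higher and 9 lower, and the median was -0.016, which is 0.11 under that of all genes. For 5 genes every knockout lay below every control (Zfand2a, Uchl5, Akirin2, Ecpas and Usp14, background 10.6%), and for 0 with scaling to total reads. The count was 8 without knockout 1 or knockout 3. Groups separate more easily with 1 liver fewer, and the share of all genes for these fits is not given here. Zfand2a, an arsenite-inducible proteasome-associated protein, measured 2.49, 2.68 and 2.87 FPKM in knockouts and 3.05, 3.32 and 3.78 in controls (adjusted p = 0.336). Nfe2l1 measured 18.8, 15.3 and 20.1 FPKM in knockouts and 21.7, 18.97 and 21.9 in controls, with overlap at knockout 3 (log2 fold change -0.20, adjusted p = 0.522). Nfe2l2, its relative in the oxidative stress response, measured 10.9, 13.6 and 15.96 FPKM in knockouts against 12.6, 15.05 and 13.98 in controls. Pomp, the core maturation factor, measured 29.3, 27.3 and 26.8 FPKM in knockouts against 29.8, 30.5 and 25.1 in controls. Both overlapped.

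Of the ubiquitin genes, activating enzymes and shuttle factors, 0 had an unadjusted p under 0.05, beside 13.9% of all genes tested. Of 16 tested, 5 were higher and 11 lower by mean, and the median log2 change was -0.027. Uba1 was the 1 gene without overlap, with every knockout below every control (background 10.6%). It measured 29.9, 31.2 and 31.6 FPKM in knockouts and 33.4, 32.8 and 34.2 in controls (limma adjusted p = 0.599). With scaling to total reads 11 were higher and 5 lower, and without knockout 1 there was 1 gene, lower, at an unadjusted p under 0.05. None passed over all genes by limma or voom.

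Genes of MHC class I loading and interferon signalling include some that share inducers with Psmb8, Psmb9 and Psmb10. Of 18 tested, 7 were higher and 11 lower by mean (9 and 9 with quantile normalization, 13 and 5 with scaling to total reads), and the median log2 change was -0.048. None passed over all genes by limma or voom, and 3 were higher and 0 lower at an unadjusted p under 0.05 (background 6.83% higher and 7.06% lower), and the higher count was 1 without knockout 2, control 1 or control 2. Without overlap, 2 lay above every control (Gbp2 and Tapbp; background 9.2%) and 1 below (Irf9; background 10.6%). Gbp2, an interferon-induced GTPase, measured 6.88, 12.8 and 9.46 FPKM in knockouts and 2.44, 2.63 and 4.47 in controls, with no overlap (log2 fold change 1.35, SE 0.25, limma adjusted p = 0.114). Tapbp, the tapasin of the peptide-loading complex, measured 22.7, 27.3 and 26.2 FPKM in knockouts against 19.4, 19.2 and 21.9 in controls, with no overlap (adjusted p = 0.279). Irf1, the interferon-induced factor known to drive inducible subunits, measured 4.81, 4.67 and 3.35 FPKM in knockouts against 3.15, 3.49 and 3.00 in controls, with knockout 3 below control 2 (adjusted p = 0.357). Irf9, a component of the interferon-stimulated transcription complex, measured 5.93, 3.69 and 5.31 FPKM in knockouts against 6.42, 5.97 and 6.10 in controls, with no overlap (adjusted p = 0.463). The class I genes B2m, H2-K1 and H2-D1 had log2 changes of -0.36, -0.092 and -0.0022, each with overlap (limma adjusted p = 0.568, 0.853 and 0.996). B2m had the lowest log2 change of the list.

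**Figure D5:**
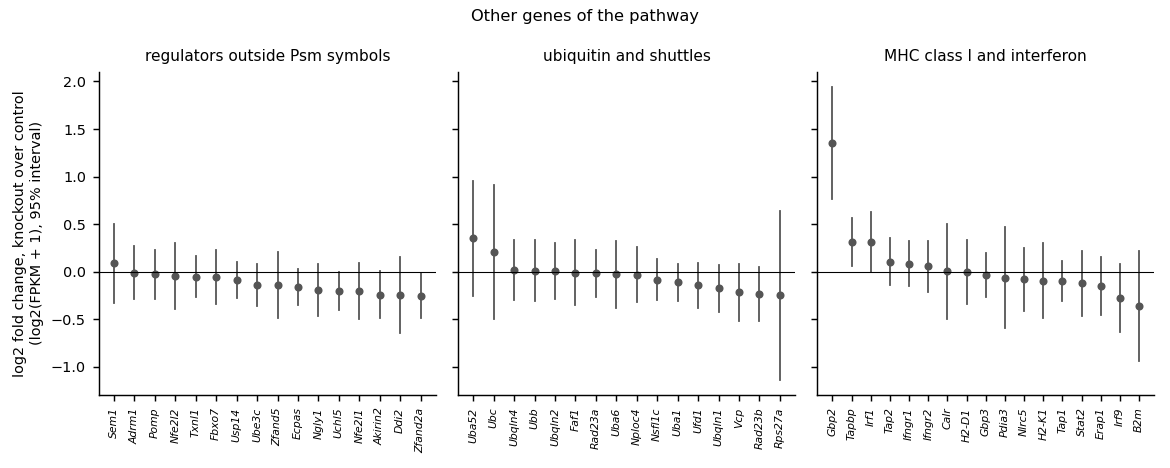
Log2 fold change of knockout over control with its 95% interval for 16 proteasome subunits and regulators with other symbols, 16 ubiquitin and shuttle genes and 17 of the 18 MHC class I and interferon genes tested. In the first panel 15 of 16 points lie below 0, and in the third Gbp2 stands above the rest.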

How the data were processed

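Trizol extraction, selection of messenger RNA with poly-T beads and a NEBNext Ultra kit were used, per the labels' protocols. Build GRCm38, featureCounts 1.5.0-p3 and HISAT2 2.0.5 come from the submitters' processing notes, without settings. The authors deposited FPKM per gene; how FPKM was computed is not stated. Multiplying FPKM by gene length recovered whole reads (tolerance 0.1) for 100% of values, and the worth of a read followed median-ratio size factors, so scaling between libraries was part of the deposited values. The reads recovered this way were used for depth, voom and total-read scaling. At these depths 3 reads in a gene of 1 kilobase correspond to 0.150 to 0.201 FPKM; no molecular identifiers are named, so such floors cover counting error only.

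The 12022 genes averaging 0.5 FPKM or more were fitted on log2(FPKM + 1) in limma 3.58.1 (R 4.3.3; eBayes, trended prior). Tests were two-sided, with Benjamini-Hochberg adjustment over all of them. A pseudocount of 1 understates changes of low genes. Sums and ratios used exact permutation tests over livers. The genes, lists and tests were chosen with earlier results of these data known. Values per liver were given for catalytic, activator and assembly genes, the lowest and highest gene of each group, Nfe2l1, Nfe2l2, Pomp, and genes at an unadjusted p under 0.05. Psma8, Psmd14, Tap1, Irf9, B2m, H2-K1, H2-D1, Uba1 and the regulators named for lack of overlap were chosen after their values were seen. Alternatives were pseudocounts of 0.1 and 0.5, no filter, a 1 FPKM filter, quantile and total-read scaling, voom, eBayes without trend, the replicate block and leaving out each liver. 3 listed symbols were not matched in the table, and 1 gene of the MHC class I and interferon list is counted but not reported singly here.

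Nothing in the labels says how mice were housed or paired. Same-numbered knockout and control livers deviated together across genes (correlations 0.315, 0.164 and 0.101), and other pairs lay between -0.254 and 0.110, so a fit with the replicate number as a block was an alternative. Nothing says that livers are separate litters, and p-values cover only the spread among these samples. All 50 genes were found in GENCODE M21, 48 with the same coordinates.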

Additional observations from a re-analysis of the deposited data

How the results depend on the processing

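No proteasome gene passed the adjusted threshold under any of 15 alternatives; the lowest adjusted p was 0.194, for Psmg4 with the replicate number as a block, which changed no adjusted call of a proteasome gene. At an unadjusted p under 0.05 the block left 3 higher and 1 lower, with Psme2b in (0.0255) and Psmb10 out (0.052). For the summed inducible subunits the block gave an exact sign-flip permutation p of 0.25, the smallest that 3 pairs allow. The direction of Psmb8, Psmb9, Psmb10, Psmf1, Psmg4 and of the inducible sum and ratio held under every alternative run.

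With scaling to total reads, proteasome genes at an unadjusted p under 0.05 were 6 higher and 0 lower, and those without overlap 11 above and 0 below. That scaling moved the whole table up, with 70.0% of all genes tested higher by mean, beside 48.1% with the deposited scaling. Quantile normalization gave 6 above. The shares of all genes for these counts are not given here, so the counts have no matching background. With total reads the median log2 changes were 0.12 for the module, 0.13 for the alpha ring, 0.19 for the beta ring, 0.12 for the cap, 0.092 for activators and Psmf1 and 0.096 for assembly factors. With quantile normalization they were 0.034 for the module, 0.066 for the alpha ring and 0.030 for the cap. The cap sum reversed to 0.042 with quantile normalization and 0.14 with total reads. Total reads also reversed Nfe2l2 (0.088), Pomp (0.11), Psmc1 (0.092), Psmd5 (0.075), Psme1 (0.065), Psme2 (0.12), Psme3 (0.13), Psme4 (0.061) and Psmg1 (0.096), and quantile normalization Psmc1 (0.030), Psme2 (0.0050) and Psme3 (0.0093). Adding Psme2b to Psme2, chosen after seeing the data, gave 0.20.

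Regulators with a lower unadjusted p under 0.05 numbered 2 with pseudocounts of 0.1 or 0.5 and with quantile normalization, 3 with no filter, and 0 with total reads or voom; with total reads 1 lay above and 0 below every control. Over the whole table, 3 genes passed the adjusted threshold, against 15 by voom, 1 with a pseudocount of 0.1, 0 with no filter, 0 with the replicate block, and 0 to 58 leaving out single livers. The cause of these differences was not tested.

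Leaving out single livers gave 0 to 3 higher and 0 to 2 lower proteasome genes at an unadjusted p under 0.05, and 3 to 8 above and 4 to 7 below all controls. Groups separate more easily with 1 liver fewer, and the shares of all genes for these fits are not given here. The beta ring median ranged from -0.0061 to 0.090 and the cap median from -0.030 to 0.028. The core sum ranged from -0.0044 to 0.072 and the cap sum from -0.019 to 0.014. Reversals spanned -0.17 to 0.087 for Nfe2l2, -0.11 to 0.023 for Pomp, -0.046 to 0.15 for Psmd10, -0.12 to 0.027 for Psmd5, -0.20 to 0.11 for Psme2, -0.11 to 0.13 for Psme3, -0.16 to 0.034 for Psme4, -0.094 to 0.0073 for Psmg1 and -0.076 to 0.12 for Psmg3. Lists gave 0 to 1 lower regulators, 5 to 8 regulators below all controls, 0 to 1 lower ubiquitin genes, and 1 to 2 higher and 0 to 2 lower MHC class I genes. With n = 3 each, permutation tests cannot reach the threshold.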
